A study of Mus musculus with 28 samples.

Results

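The measurements below follow 9 enzymes of the mevalonate and early sterol pathway, Hmgcs1, Mvk, Pmvk, Mvd, Idi1, Fdps, Fdft1, Sqle and Lss, through sorted Treg cells from the spleens and tumors of mice with glioblastoma (GBM). They are 9 of the 53801 features in the table and were chosen by name. Pmvk was picked because it rose after treatment in GBM and not in spleen, so its own values are given as a description and receive no test in any comparison. The mice, C57BL/6 animals of both sexes, carried orthotopic tumors of CT2A, a murine GBM line. They received IgG2a control antibody, or αPD1 (clone RMP1-14, which blocks the PD1 receptor) together with αGITR (clone DTA-1, which binds GITR, a receptor abundant on Treg cells). Dosing began when tumors reached 2 mm3, with 4 doses of 250 µg per mouse every 3 days, and tissue was taken 2 days after the last dose. Treg cells were sorted as TCR+CD4+CD25hiCD127lo cells that excluded CD8 cells, and the labels name no transgene or deletion. The titles give several libraries of a group the same number, such as spleen_79_a to spleen_79_d, and what the numbers mean is not given in the sources used here. The animals the study counts for each treatment are as many as the GBM libraries here and fewer than the splenic ones. Where those counts cover the spleens too, some splenic libraries share an animal, and p-values over splenic libraries are then too small. The libraries used here were 5 from GBM after IgG2a, 7 from GBM after αPD1 + αGITR, 7 from spleen after IgG2a and 8 from spleen after αPD1 + αGITR.

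The mevalonate pathway turns acetyl-CoA into isoprenoids and sterols. HMG-CoA made by HMG-CoA synthase is reduced to mevalonate, which is phosphorylated by Mvk and then by Pmvk, decarboxylated by Mvd, and passed through Idi1 and Fdps to farnesyl diphosphate, the branch point between prenyl groups that anchor small GTPases in membranes and squalene, the precursor of cholesterol. Transcription of the pathway is driven largely by SREBP2 when membrane sterols are low, and mevalonate metabolism is known to be needed for the proliferation and suppressive activity of Treg cells.

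Values are TPM, a level relative to all transcripts, scaled for transcript length and for the library's total, so levels may be compared between genes. Differences are given on the log2(TPM + 1) scale, which understates the change of low genes. Read depth is unknown, and the libraries had between 7702 and 17460 genes above 1 TPM. All 27 libraries contained Foxp3, the transcription factor that defines Treg cells, at a mean of 176 TPM in GBM after IgG2a, 310 TPM in GBM after αPD1 + αGITR, 170 TPM in spleen after IgG2a and 167 TPM in spleen after αPD1 + αGITR. Of the other markers, the sum of 8 T cell genes ran from 1455 to 3561 TPM and from 1996 to 4612 TPM in the GBM groups, and from 274 to 4002 TPM and from 389 to 3366 TPM in the splenic groups, each with IgG2a first. The sum of 13 macrophage and microglia genes was highest in library tumor_79_a, after IgG2a, at 14210 TPM, and in library tumor_73_a, after αPD1 + αGITR, at 5612 TPM, and lay between 35.1 and 2183 TPM in the other 25. The fewest genes were detected in library tumor_369_a, after IgG2a, which is the library with 7702. Fewer transcript-bearing cells and less RNA per cell cannot be told apart in such bulk libraries.

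Pmvk (phosphomevalonate kinase, ENSMUSG00000027952.16) lies on the plus strand of mouse chromosome 3 at chr3:89454541-89469013 in GRCm38, with 4 transcripts of up to 5 exons in GENCODE, and no other annotated gene overlaps it. Promoter windows of RefSeq (GRCm38.p6) matched 6 of the 9 members, Pmvk with a pair of start sites. Fdps, Fdft1 and Sqle had no entry. Motif matches were read on both strands, and the bases before the upstream Pmvk start and before the Hmgcs1 start are shown because Pmvk is the gene the values turn on and Hmgcs1 alone of the 6 genes held the sterol regulatory element core. Capitals mark TCACNCCA, the sterol regulatory element core, and CCAAT, the box bound by NF-Y, in either orientation. The sequences span chr3:89454291-89454540 and chr13:119690101-119690350.
Pmvk: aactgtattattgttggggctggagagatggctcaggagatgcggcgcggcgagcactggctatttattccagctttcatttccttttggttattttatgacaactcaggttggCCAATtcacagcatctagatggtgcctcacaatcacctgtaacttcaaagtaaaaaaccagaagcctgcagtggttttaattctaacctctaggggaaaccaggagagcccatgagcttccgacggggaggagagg
Hmgcs1: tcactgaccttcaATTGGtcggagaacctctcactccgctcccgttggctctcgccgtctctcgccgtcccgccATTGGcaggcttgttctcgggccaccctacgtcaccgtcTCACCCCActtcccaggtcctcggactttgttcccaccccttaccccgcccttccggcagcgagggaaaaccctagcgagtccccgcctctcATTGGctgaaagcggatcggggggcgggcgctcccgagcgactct

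Over the whole windows of 300 bases, TCACNCCA occurred once among the 7 windows of the members, in Hmgcs1, and in 4.36% of the 32851 mouse windows of that length. CCAAT occurred in 5 places for Mvk, 4 for Hmgcs1, 2 each for Mvd and Idi1, and 1 each for Lss and the upstream window of Pmvk, against 37.4% of all windows with at least 1. The downstream Pmvk window, chr3:89459321-89459620, held neither. These are matches of letters within the windows and say nothing of binding or of sequence outside the windows.

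Pmvk was the only member whose GBM groups did not overlap, the difference it was picked for, where 1.77% of all genes tested were higher with no overlap. In GBM after IgG2a it stood at 0.29, 0, 4.59, 3.92 and 0 TPM in libraries tumor_369_a, tumor_76_a, tumor_77_a, tumor_78_a and tumor_79_a, a mean of 1.76 ± 2.29 TPM (SD, n = 5). In GBM after αPD1 + αGITR it stood at 10.03, 34.0, 33.9, 19.7, 14.2, 11.4 and 14.1 TPM in libraries tumor_70_a, tumor_70_b, tumor_72_a, tumor_73_a, tumor_73_b, tumor_74_a and tumor_80_a, a mean of 19.6 ± 10.3 TPM (SD, n = 7). Every treated tumor library was above every IgG2a tumor library, and the lowest treated value exceeded the highest control value by more than the whole range of the controls. In spleen the direction of the means was the opposite. The splenic values after IgG2a were 4.97, 1.18, 7.56, 1.55, 14.5, 6.15 and 3.04 TPM in libraries spleen_369_a, spleen_76_a, spleen_77_a, spleen_79_a, spleen_79_b, spleen_79_c and spleen_79_d, a mean of 5.56 ± 4.59 TPM (SD, n = 7). After αPD1 + αGITR they were 0, 2.49, 0, 0, 0.73, 10.8, 1.86 and 4.56 TPM in libraries spleen_70_a, spleen_70_b, spleen_70_c, spleen_72_b, spleen_72_c, spleen_73_a, spleen_74_a and spleen_80_a, a mean of 2.56 ± 3.70 TPM (SD, n = 8). The splenic groups overlapped, and Pmvk was listed at 0 in 3 of 8 treated splenic libraries and in 2 of 5 IgG2a tumor libraries.

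On the log2(TPM + 1) scale the Pmvk difference between αPD1 + αGITR and IgG2a was 3.19 in GBM and -1.15 in spleen, which leaves 4.35 between the tissues. Within IgG2a, GBM minus spleen was -1.39, and within αPD1 + αGITR it was 2.95. These values chose the gene or share libraries with those that did, and they carry no test. In the order of mean TPM, GBM after αPD1 + αGITR stood above spleen after IgG2a by 14.0 TPM, more than the larger SD of 10.3 TPM, while the neighbouring steps down to spleen after αPD1 + αGITR and to GBM after IgG2a, of 3.00 and 0.799 TPM, were within their spread. Leaving out 1 library at a time, the difference in GBM ran from 2.94 to 3.56 and that in spleen from -1.48 to -0.90. The sizes depend on the pseudocount: with 0.1 in place of 1 the differences were 4.90 and -2.35, and with 10 that in GBM was 1.28.

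**Figure D1:**
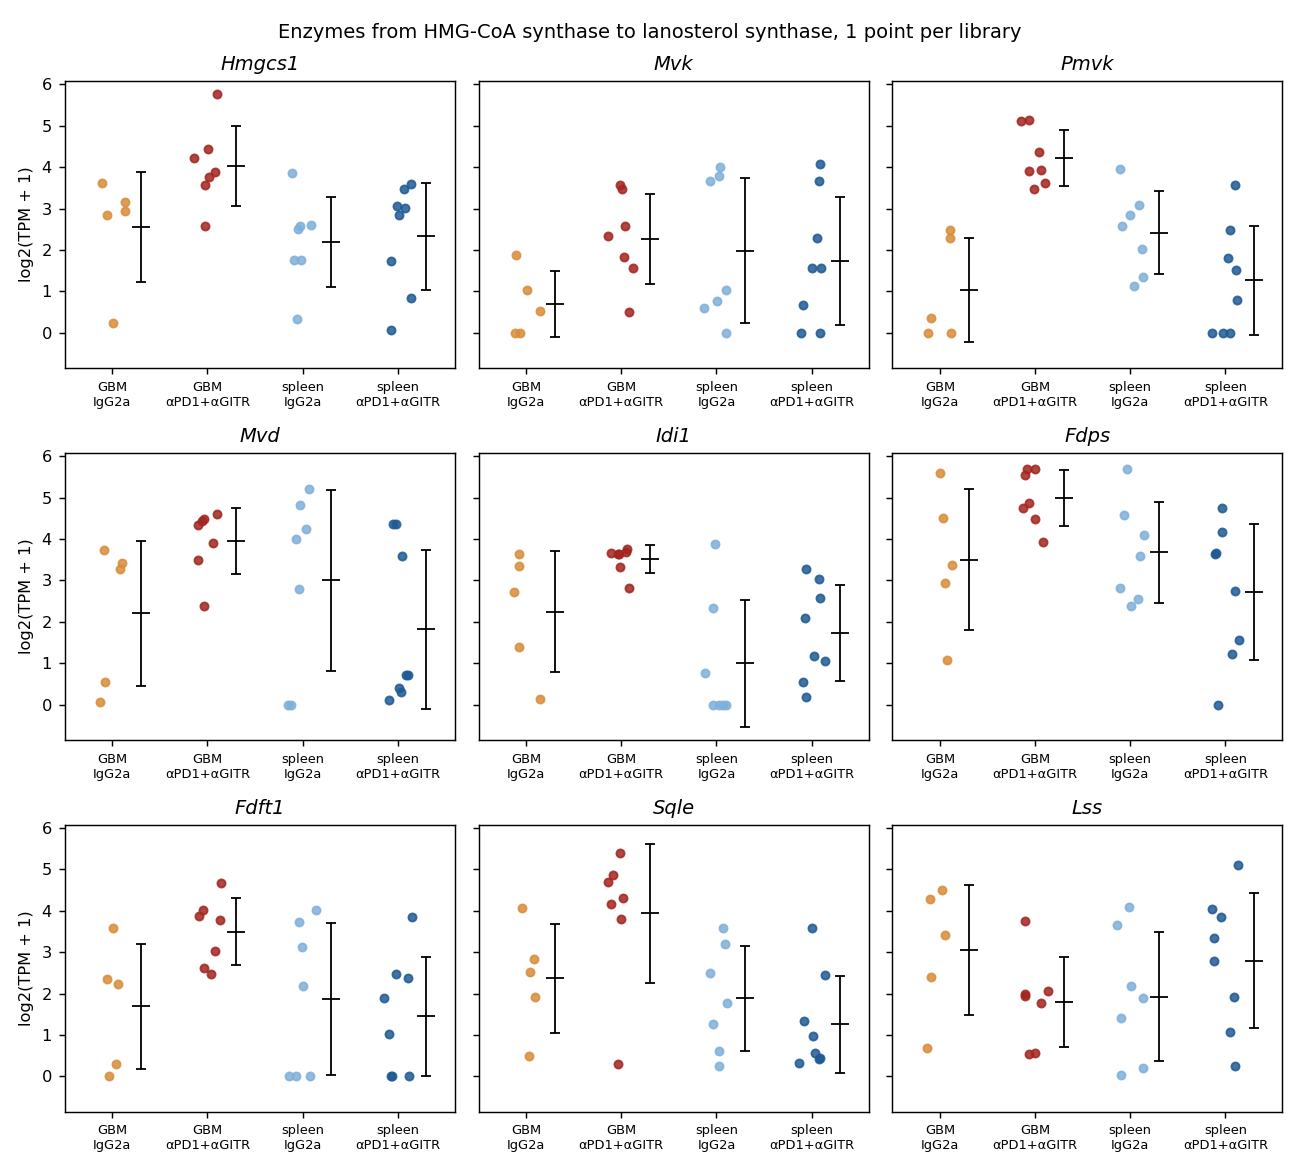
Level of each of the 9 enzymes as log2(TPM + 1) in the 27 libraries, 1 point per library, with the black bar at the mean and its whiskers at 1 SD for each of the 4 groups. The 7 GBM libraries after αPD1 + αGITR sit above all 5 GBM libraries after IgG2a for Pmvk, and the groups of the other 8 enzymes overlap.

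The remaining 8 enzymes were then compared between αPD1 + αGITR and IgG2a in GBM, a comparison that asks how treatment changed the transcriptome of Treg cells in the tumor. Of the 8, 7 had a higher mean after treatment and Lss had a lower one, with a median difference of 1.53 on the log2 scale, against 0.62 over all 7848 genes tested, of which 71.6% were above 0. Without control library tumor_369_a, the one with the fewest genes detected, the median of the members was 0.9996 and that of all genes tested 0.36. No member and no gene passed an adjusted p of 0.05 in limma, that is 0% of those tested, while 22.3% passed at an unadjusted p of 0.05. At an unadjusted p under 0.05 with more than a 2-fold change, Mvd, Fdps and Fdft1 of the 7 members tested were higher and none was lower, where 16.8% of all genes tested were higher and 4.87% lower. Hmgcs1, Mvd, Idi1, Fdft1 and Sqle exceeded the mean of 10 TPM that the test requires only after treatment, the group where they were high, and Lss only after IgG2a, so this count describes the genes that entered and is no support for the list. Fdps exceeded it in both groups and was the 1 member called when both were required to. The count was 0 when libraries that share a number were averaged. Exact permutation p-values were under 0.05 for 6 of the 8, where 24.4% of all genes tested had one. Mvk, with a mean below 10 TPM in both groups, did not enter the limma test.

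At the entry to the pathway, Hmgcs1, which condenses acetoacetyl-CoA with acetyl-CoA to HMG-CoA, stood at 0.18, 6.65, 11.2, 7.88 and 6.17 TPM after IgG2a in libraries tumor_369_a, tumor_76_a, tumor_77_a, tumor_78_a and tumor_79_a. After treatment it ran from 5.00 through a median of 13.9 to 53.5 TPM. The groups overlapped only through treated libraries tumor_70_a and tumor_72_a, which lay under the highest control. The difference was 1.48 (SE 0.71, limma p = 0.0513, adjusted p = 0.227), and the exact two-sided permutation test over all 792 splits gave p = 0.0290.

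Mvk, the kinase just before Pmvk, was the least abundant member in GBM after IgG2a, at 0, 2.70, 0.45, 1.06 and 0 TPM in the same order of libraries. After treatment it ran from 0.41 through a median of 4.06 to 10.9 TPM. Of the treated libraries 4 exceeded the highest control, tumor_70_b, at 0.41 TPM, stood below 3 of the 5 controls, and the difference was 1.58 with an exact permutation p of 0.0265. Mvd, the decarboxylase just after Pmvk that yields isopentenyl diphosphate, stood at 0.46, 8.62, 12.2, 9.72 and 0.04 TPM in the controls. It ran from 4.21 through a median of 19.4 to 23.3 TPM after treatment, and 5 of 7 treated libraries exceeded every control. The difference was 1.75 (SE 0.76, limma p = 0.0331, adjusted p = 0.196), with an exact permutation p of 0.0341.

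Idi1, the isomerase that makes dimethylallyl diphosphate, had 0.10, 1.61, 9.21, 5.60 and 11.5 TPM in the controls. After treatment its values were the most even of any member, from 6.0 through a median of 11.5 to 12.6 TPM. The highest control and the median of the treated libraries were alike, so the difference of 1.26 (SE 0.70, limma p = 0.0856, adjusted p = 0.280; exact permutation p = 0.0177) lay mainly in the lower controls. Fdps, the farnesyl diphosphate synthase that bisphosphonates inhibit, was the most abundant member in both GBM groups, with 1.12, 21.7, 9.38, 6.60 and 47.3 TPM after IgG2a. It ran from 14.3 through a median of 28.3 to 50.8 TPM after treatment. Control library tumor_79_a, the one with the highest macrophage sum, lay above 5 of the 7 treated libraries, and the difference was 1.497 (SE 0.69, limma p = 0.0426, adjusted p = 0.210; exact permutation p = 0.0480).

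On the squalene arm, Fdft1, which joins 2 farnesyl diphosphates to squalene, stood at 0.24, 3.67, 10.9, 4.12 and 0 TPM after IgG2a and ran from 4.51 through 12.8 to 24.4 TPM after treatment. It had the largest difference of the 8, 1.80 (SE 0.76, limma p = 0.0275, adjusted p = 0.185; exact permutation p = 0.0189), and 4 treated libraries lay above every control. Its 3′ end overlaps Ctsb on the opposite strand, a gene at means of 338 and 327 TPM in the GBM groups, and reads of the pair cannot be told apart in a protocol without strand marking. Sqle, the squalene epoxidase, stood at 0.41, 2.75, 4.76, 15.9 and 6.13 TPM after IgG2a and ran from 0.23 through 18.9 to 41.4 TPM after treatment. Treated library tumor_72_a held the 0.23 TPM and stood below every control, whereas 5 of the other 6 lay above every control. The difference was 1.57 (SE 0.84, limma p = 0.0780, adjusted p = 0.269; exact permutation p = 0.120), and without library tumor_72_a it was 2.17.

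Lss, which closes the ring of lanosterol, went the other way. It stood at 0.60, 4.26, 9.75, 21.9 and 18.6 TPM after IgG2a and ran from 0.45 through 2.81 to 12.5 TPM after treatment, with 6 of the 7 treated libraries at 3.15 TPM or less. The difference of -1.26 (SE 0.83, limma p = 0.144, adjusted p = 0.358; exact permutation p = 0.126) did not pass. Control library tumor_369_a, at 0.60 TPM, was low for this gene as for the rest, and without it the Lss difference was -1.86, while those of Hmgcs1, Idi1 and Fdps shrank to 0.90, 0.73 and 0.89. Leaving out 1 library at a time, the number of the 8 members past the unadjusted threshold ran from 1 to 3, and it was 1 without control tumor_369_a, without treated tumor_72_a and without treated tumor_73_a. The sum of Treg identity genes, Foxp3 among 8, also moved, lying between 887 and 1211 TPM after IgG2a and between 963 and 1659 TPM after treatment, and its part in these differences was not tested.

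**Figure D2:**
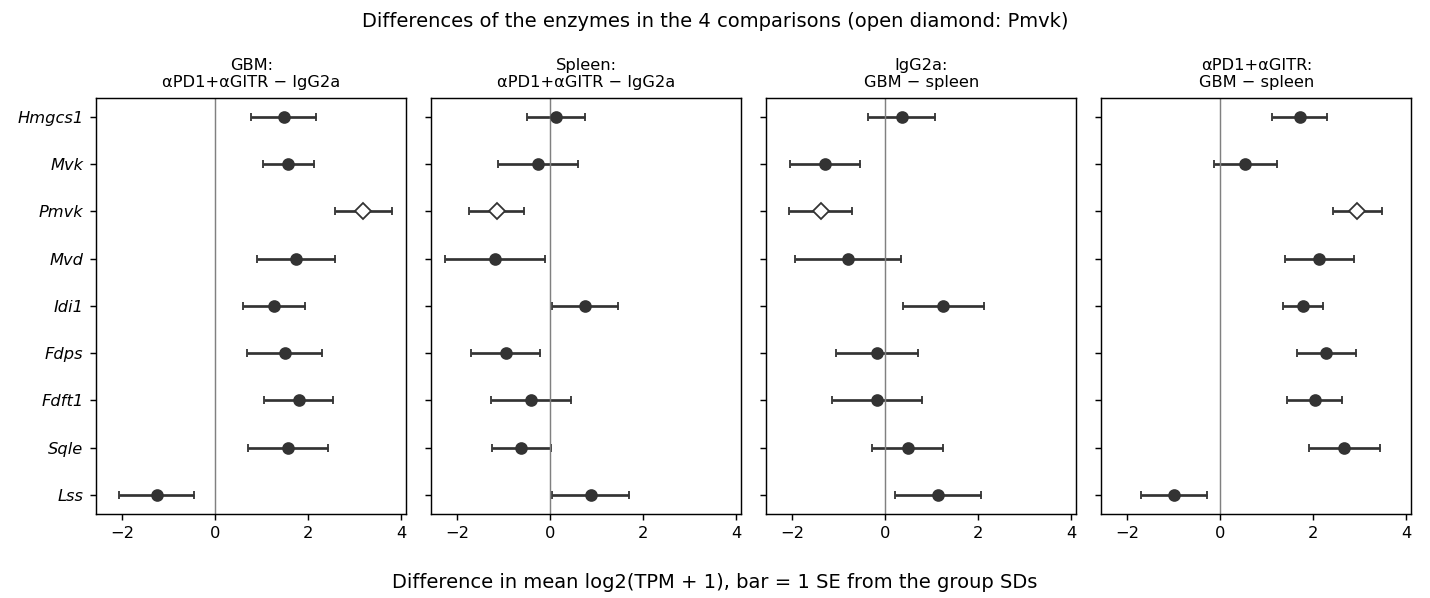
Difference in mean log2(TPM + 1) of each enzyme in the 4 comparisons, with whiskers of 1 SE from the SDs of the groups; the open diamond is Pmvk, which carries no test. In GBM after treatment 8 of the 9 enzymes lie right of 0 and Lss lies left at -1.26, and in spleen the 9 scatter between -1.19 and 0.87.

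In spleen the same comparison gave no such pattern. Only Mvd, Fdps and Lss reached a mean of 10 TPM in a splenic group and entered the limma test, and none of the 3 passed either threshold, where 1.49% of the 6634 genes tested were higher and 1.04% lower at the unadjusted threshold and 0% passed the adjusted one; 2.53% had an unadjusted p under 0.05. The median difference of the 8 members was -0.33, against 0.15 over all genes tested, with 3 members above 0 and 5 below, where 58.1% of all genes were above 0. Leaving out 1 library at a time the median ran from -0.65, without spleen_79_c, to -0.01, without spleen_79_b, and it moved by over 1.5 times also without IgG2a library spleen_76_a, spleen_77_a or spleen_79_a or treated library spleen_70_c, spleen_74_a or spleen_80_a. Mvd after IgG2a ran from 0 through 14.9 to 35.7 TPM and after treatment from 0.08 through 0.635 to 19.7 TPM, a difference of -1.19 (SE 0.97, limma p = 0.230, exact permutation p = 0.273). Its splenic values fell into high and low libraries in both groups, with 2 libraries at 0 after IgG2a and 5 below 1 TPM after treatment. Fdps ran from 4.17 through 11.1 to 51.1 TPM and from 0 through 8.59 to 26.1 TPM, a difference of -0.96 (SE 0.79, limma p = 0.234, exact permutation p = 0.227). Lss was higher after treatment, with medians of 2.73 and 7.55 TPM and a difference of 0.87 (SE 0.86, limma p = 0.318, exact permutation p = 0.304).

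The other 5 were low in spleen. Hmgcs1 had medians of 4.68 and 6.63 TPM after IgG2a and after treatment, Mvk of 1.04 and 1.97 TPM, Idi1 of 0 and 2.26 TPM, Fdft1 of 3.53 and 1.89 TPM, and Sqle of 2.44 and 0.73 TPM. Idi1 was listed at 0 in 4 of 7 splenic libraries after IgG2a and in none after treatment, yet its difference of 0.74 had an exact permutation p of 0.303. The exact p-values of Hmgcs1, Mvk, Fdft1 and Sqle in spleen were 0.840, 0.766, 0.629 and 0.332. Splenic library spleen_79_b after IgG2a was the highest of its group for Pmvk, Hmgcs1, Idi1, Fdps, Fdft1, Sqle and Lss, and it also had the highest T cell marker sum, 4002 TPM; the part of T cell content in these values was not tested. Alas2, an erythroid gene, averaged 15.4 and 75.0 TPM in the splenic groups and under 1 TPM in both GBM groups.

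Whether treatment acted differently in GBM and spleen was tested with an interaction term over all 27 libraries. The difference between the treatment changes in GBM and in spleen was above 0 for 7 of the 8 members and below 0 for Lss, with a median of 2.01, against 0.45 over the 8687 genes tested, of which 63.5% were above 0. Mvd, at 2.93 (SE 1.28, limma adjusted p = 0.360), and Fdps, at 2.46 (SE 1.07, limma adjusted p = 0.357), passed the unadjusted threshold, where 6.8% of all genes were higher and 5.35% lower. No gene passed after adjustment, that is 0%, and 12.2% had an unadjusted p under 0.05. Fdft1 at 2.21 (SE 1.13), Sqle at 2.19 (SE 1.10) and Lss at -2.13 (SE 1.14) did not pass, nor did Hmgcs1 at 1.35 or Idi1 at 0.52. The value of Idi1 was near 0 without GBM control tumor_369_a, at -0.01. The count of 2 members became 1 without GBM control tumor_369_a or tumor_79_a, and 4 without splenic IgG2a library spleen_369_a, spleen_77_a or spleen_79_c.

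Between the tissues after IgG2a, the members did not differ in one direction. The median GBM minus spleen difference of the 8 was 0.09, against 0.48 over the 7380 genes tested, with 4 above 0 and 4 below, where 66.1% of all genes were above 0. Without 1 library it ran from -0.14, without spleen_77_a, to 0.68, without tumor_369_a. Of Mvd at -0.80 (SE 1.05), Fdps at -0.18 (SE 0.90) and Lss at 1.14 (SE 0.98), the 3 tested by limma, none passed either threshold, where 7.63% of genes were higher in GBM and 2.3% lower at the unadjusted threshold and 0.569% passed the adjusted one; 9.93% had an unadjusted p under 0.05. The exact permutation p-values of the 8 lay between 0.167, for Mvk at -1.29, and 0.874, for Fdft1 at -0.17. The sign of Fdps changed with single libraries, being 0.16 without splenic library spleen_79_b and 0.42 without GBM library tumor_369_a.

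After αPD1 + αGITR, 7 of the 8 members had a higher mean in GBM than in spleen and Lss had a lower one. The median difference was 1.90, against 0.95 over the 7506 genes tested, of which 77.6% were above 0. Of the 7 members tested 6 passed the unadjusted threshold upward and none downward, where 33.9% of all genes were higher and 6.31% lower, and 4 passed an adjusted p of 0.05 in limma, where 17.5% of all genes did so in either direction. All 6 had a splenic mean below 10 TPM and entered the test only through GBM, where they were high, and no member was called when both groups had to exceed 10 TPM, so these counts are no support for the list. With libraries that share a number averaged, 6 passed the unadjusted threshold and 0 the adjusted one. Those 4 were Sqle at 2.67 (SE 0.74, adjusted p = 0.0206), Fdps at 2.28 (SE 0.66, adjusted p = 0.0248), Fdft1 at 2.04 (SE 0.68, adjusted p = 0.0434) and Idi1 at 1.77 (SE 0.60, adjusted p = 0.0450). Their exact permutation p-values were 0.00622, 0.00404, 0.00715 and 0.00249, in that order, and 6 of the 8 members had one under 0.05, where 38.2% of all genes tested did. Mvd at 2.13 (SE 0.75, adjusted p = 0.0502) and Hmgcs1 at 1.71 (SE 0.64, adjusted p = 0.0601) passed the unadjusted threshold only.

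The values behind these calls still overlapped. Sqle, at 0.23 TPM in GBM library tumor_72_a and 12.9 TPM or more in the other 6, ran from 0.26 through 0.73 to 11.01 TPM in spleen, so without tumor_72_a the tissues would be separate. Idi1 was at 6.0 TPM or more in all 7 GBM libraries and at 8.62 TPM or less in all 8 splenic ones. Mvk differed by 0.54 (exact permutation p = 0.440), with medians of 4.06 TPM in GBM and 1.97 TPM in spleen. Lss was lower in GBM by -0.99 (SE 0.74, adjusted p = 0.298), with medians of 2.81 and 7.55 TPM. The adjusted calls rested on few libraries: the count of 4 ran from 0 to 6 when 1 library was left out, and was 0 without GBM tumor_70_b, 1 without GBM tumor_72_a, 2 without GBM tumor_70_a, tumor_73_a or tumor_73_b or splenic spleen_70_a, spleen_72_b or spleen_72_c, and 6 without splenic spleen_73_a. Of the treated libraries, tumor_73_a had the most macrophage transcripts in GBM and spleen_72_b the fewest T cell transcripts in spleen, and the count at the unadjusted threshold was 6 without either.

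Summed over the 9 members, the pathway took up 3.40, 52.0, 72.5, 76.6 and 89.7 TPM in the GBM libraries after IgG2a. After αPD1 + αGITR the GBM sums ran from 114 through 117 to 219 TPM, above every control sum. Without Pmvk the treated sums were still 99.95 TPM or more and the control sums 89.7 TPM or less. In this comparison 71.6% of all genes tested were above 0, and other sums of genes were not compared. In spleen the sums ran from 40.4 through 50.8 to 165 TPM after IgG2a and from 21.4 through 46.6 to 71.4 TPM after treatment. Pmvk made up 8.61 to 21.6% of the sum in the treated tumors and 0 to 8.53% in the control tumors. All 7 treated tumor libraries had at least 7 members above 1 TPM, and so did 3 of the 5 control tumor libraries, with 8, 8 and 9. Control library tumor_79_a had 5, and tumor_369_a, the library with the fewest genes detected, had 1, Fdps.

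**Figure D3:**
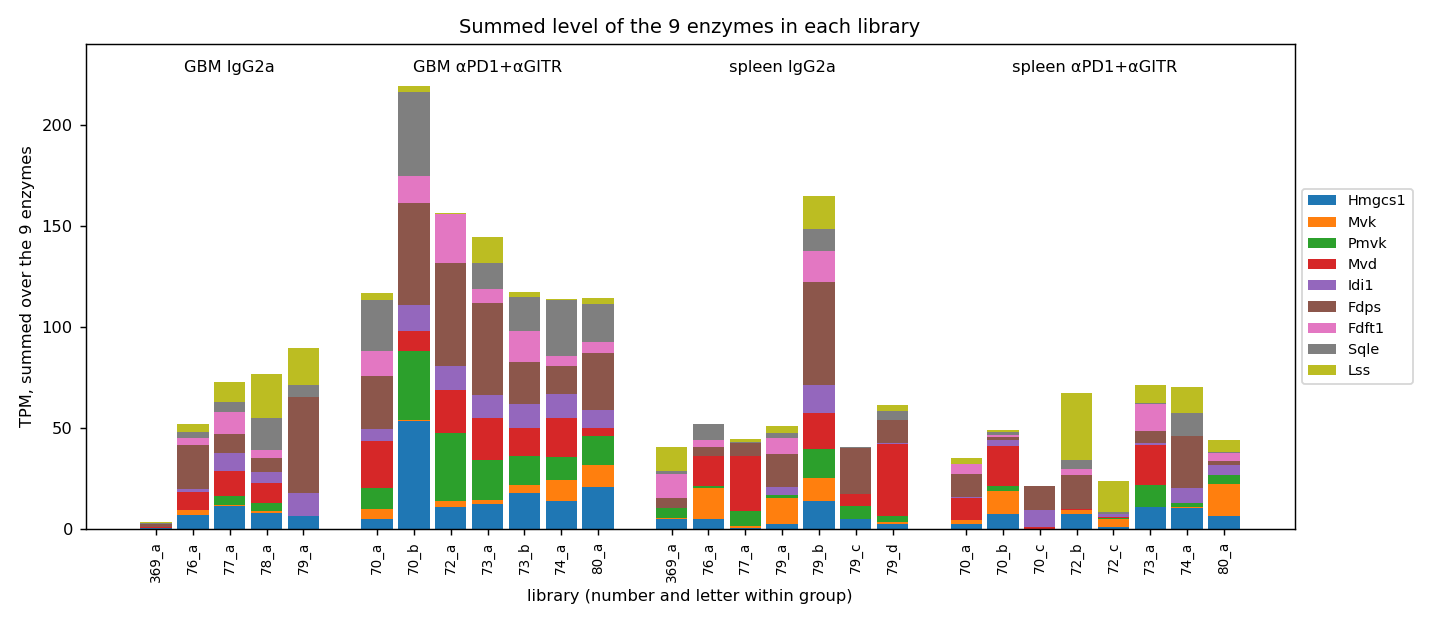
TPM of the 9 enzymes stacked in each of the 27 libraries, in 4 groups. The 7 GBM libraries after αPD1 + αGITR reach 114 to 219 TPM, and among the other 20 libraries only splenic library spleen_79_b, at 165 TPM, lies above 89.7 TPM.

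In order of mean TPM, GBM after αPD1 + αGITR was the highest group for Hmgcs1, Pmvk, Mvd, Idi1, Fdps, Fdft1 and Sqle. For Pmvk, Idi1 and Sqle the step to the next group was larger than the larger SD of the pair, with steps of 5.03 TPM for Idi1 and 14.5 TPM for Sqle, both down to GBM after IgG2a. No other neighbouring groups of any member differed by more than that spread. Spleen after IgG2a was the highest group for Mvk, at a mean of 5.98 ± 6.83 TPM (SD, n = 7), and GBM after IgG2a was the highest for Lss, at 11.02 ± 9.10 TPM (SD, n = 5). Across the 27 libraries the 36 pairs of members had Pearson r from -0.31 to 0.66 with a median of 0.31, and 32 were above 0; the highest was that of Hmgcs1 with Sqle. With the group means taken off, r ran from -0.26 to 0.50 with a median of 0.23. These correlations share libraries, scaling and detection, and are a description.

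The neighbouring parts of the pathway were described with lists of genes drawn up by function. Of their 38 genes tested in GBM after treatment, 11 passed the unadjusted threshold upward and 0 downward, where 16.8% of all genes tested did so upward and 4.87% downward. In GBM after treatment, Acly, which makes cytosolic acetyl-CoA, differed by 1.36 (exact permutation p = 0.0897) and Acss2, which makes it from acetate, by 0.51 (exact permutation p = 0.474), and neither passed the unadjusted threshold. Of the 8 tested genes between lanosterol and cholesterol, 3 passed upward and none downward: Sc5d, a sterol desaturase, at 1.99 (SE 0.70, adjusted p = 0.143), Dhcr7, the 7-dehydrocholesterol reductase, at 1.58 (SE 0.70, adjusted p = 0.198), and Ebp, a sterol isomerase, at 1.27 (SE 0.61, adjusted p = 0.220). The GBM groups of Ebp did not overlap, where 1.77% of all genes tested were higher with no overlap.

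Among the genes of SREBP control, Srebf2, which encodes SREBP2, at 1.06 (SE 0.50, adjusted p = 0.216), passed upward. Insig1, a retention factor for SREBP and itself a target of it, differed by 0.75 (exact permutation p = 0.572) and was singled out after its values were seen. Between the tissues after αPD1 + αGITR, Insig1 was higher in GBM by 1.72 (SE 0.73, limma adjusted p = 0.0877, exact permutation p = 0.0505). That difference passed the unadjusted threshold, as did 33.9% of all genes tested upward. Of 11 tested genes of sterol uptake, transport and storage 4 passed upward: Lipa, the lysosomal acid lipase, at 2.58, Abcg1, a sterol exporter, at 2.11, Stard4, a sterol carrier, at 2.04, and Soat1, which esterifies cholesterol, at 1.63, where 16.8% of all genes tested did. Of the listed genes called and named here, Lipa, Abcg1, Stard4, Sc5d, Dhcr7, Rabggtb and Fads1 had a mean below 10 TPM after IgG2a and entered the test only through the treated group, so these counts are no support for their lists. Lipa had the smallest adjusted p of any listed gene, 0.0977, with an SE of 0.71. Rabggtb, a subunit of the Rab prenyl transferase, at 1.76, was the 1 of 6 tested genes of the prenyl branch, a share like that of all genes, and Fads1, a fatty acid desaturase, at 2.05, the 1 of 3 of fatty acid synthesis. The medians of 5 lists over all measured genes were 1.12 for lanosterol to cholesterol, 0.58 for uptake and transport, 0.49 for SREBP control, 0.42 for fatty acids and 0.29 for the prenyl branch, where that of all genes tested was 0.62. These list medians include genes too low to be tested, which the 0.62 leaves out. Over their tested genes alone, the 5 medians ran from 0.75 for SREBP control to 1.19 for uptake and transport, all above 0.62. The median of the list of acetyl-CoA supply is not reported here, so the medians given do not cover all neighbouring lists.

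In spleen after treatment no gene of the lists passed the unadjusted threshold, among 31 tested, where 1.49% of all genes tested were higher and 1.04% lower. Srebf2 differed there by less than 0.01 (SE 0.62, exact permutation p = 0.999), Acly by 0.27 and Lbr, a sterol reductase of the nuclear membrane, by 0.82 (exact permutation p = 0.150). Between the tissues after αPD1 + αGITR, 6 of 39 listed genes tested passed the adjusted threshold, a share no larger than the 17.5% of all genes tested. All were higher in GBM, among them Fads1 at 2.79, Soat1 at 2.07, Npc2, a lysosomal sterol carrier, at 1.84, Ebp at 1.66 and Dhcr7 at 1.61. Of those named, Fads1, Ebp and Dhcr7 had a splenic mean below 10 TPM and entered the test only through GBM, where they were high. The count and its direction are therefore no support for the lists. The median of the lanosterol to cholesterol list in that comparison, 1.05, lay close to the 0.95 of all genes, below the 1.90 of the members. After IgG2a, 1 of 31 listed genes tested was higher in GBM and 2 were lower, where 7.63% and 2.3% of all genes tested were. Of these, Tm7sf2, a sterol reductase, at -2.13, and Lipa, at -1.94, were lower in GBM at the unadjusted threshold and Ch25h, the cholesterol 25-hydroxylase, at 2.48 (SE 1.15, limma adjusted p = 0.470), was higher. Ch25h had a mean of 39.8 TPM in GBM but a median of 2.32 TPM, with a highest value of 189 TPM, and was at 0 in all 7 splenic libraries. It entered the test only through GBM, and Lipa, at a mean of 5.58 TPM in GBM, only through spleen. With the interaction term, 3 of 41 listed genes tested passed the unadjusted threshold upward and 0 downward. Of all genes tested, 6.8% did so upward and 5.35% downward. Among the listed ones were Lipa, at 2.60 (SE 0.92, limma adjusted p = 0.314), and Fads1, at 2.50 (SE 1.15, limma adjusted p = 0.381). Lipa and Npc2 are also expressed by macrophages, whose markers varied between these libraries as given above, and their part was not tested.

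**Figure D4:**
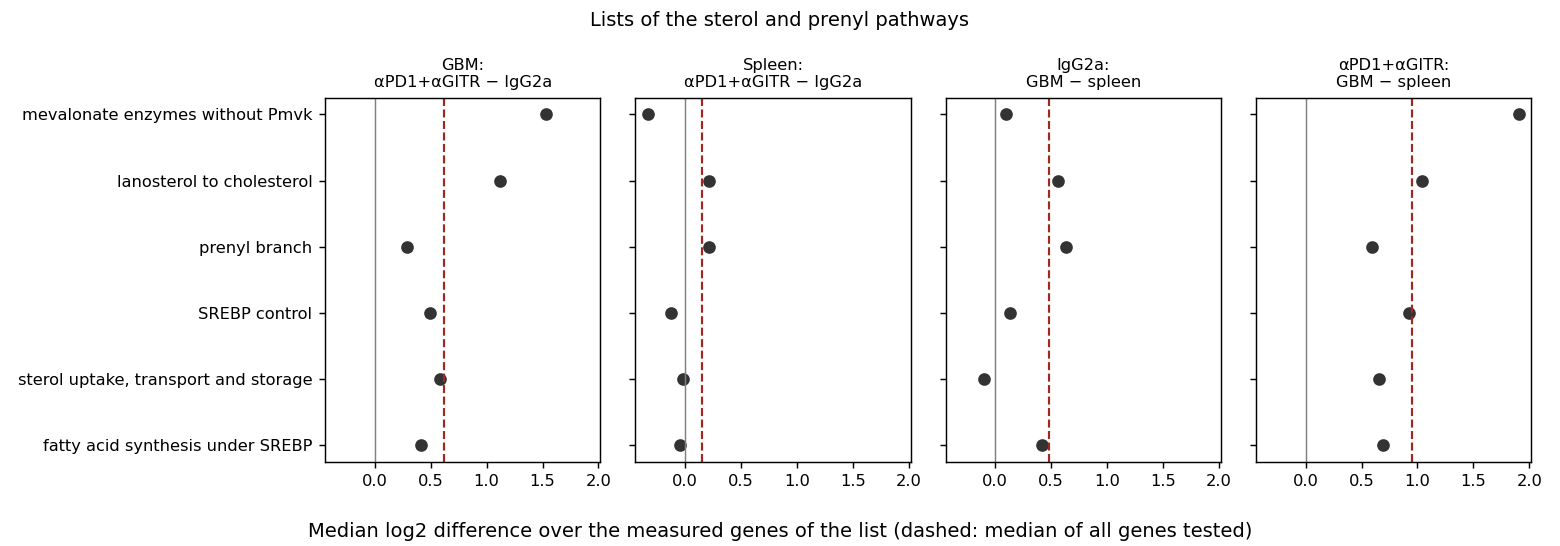
Median log2 difference of the members without Pmvk and of 5 gene lists in the 4 comparisons, 1 point per list over its measured genes, with the dashed line at the median of all genes tested and 1 other list not shown. The points include genes too low to be tested, which the dashed line leaves out, so their side of the line is not a like comparison. The members without Pmvk lie at 1.53 in GBM after treatment and at 1.90 between tissues after αPD1 + αGITR, right of the dashed lines at 0.62 and 0.95, and at -0.33 in spleen.

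Genes with a pattern like that of Pmvk were ranked by Pearson r of log2(TPM + 1) over the 27 libraries among 8686 genes. The 5 highest were Gdap2 at r = 0.86, Cdkn3, a phosphatase of cyclin-dependent kinases, at 0.82, Tmem9b at 0.78, Elk1, an ETS family transcription factor, at 0.78, and Pgls, the 6-phosphogluconolactonase of the pentose phosphate pathway, at 0.76. With the group means taken off they were 0.80, 0.75, 0.63, 0.62 and 0.69. Cdkn3 had means of 14.6 TPM in GBM after αPD1 + αGITR, 1.97 TPM in GBM after IgG2a, 2.30 TPM in spleen after IgG2a and 1.75 TPM in spleen after αPD1 + αGITR. Gdap2 averaged 17.7, 2.33, 6.36 and 6.78 TPM in the same order.

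None of the other members was among these. Hmgcs1 came nearest, at r = 0.63 and rank 171, then Fdft1 at 0.61 and rank 230, Mvd at 0.55 and rank 588, and Idi1 at 0.46. Fdps at 0.40 and Sqle at 0.40 stood at -0.02 and -0.05 with the group means taken off, and Lss stood at -0.10. All of these share the 27 libraries and their scaling. With TMM-type scaling factors Pgls dropped to rank 36 and the other 4 kept ranks 1 to 4.

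**Figure D5:**
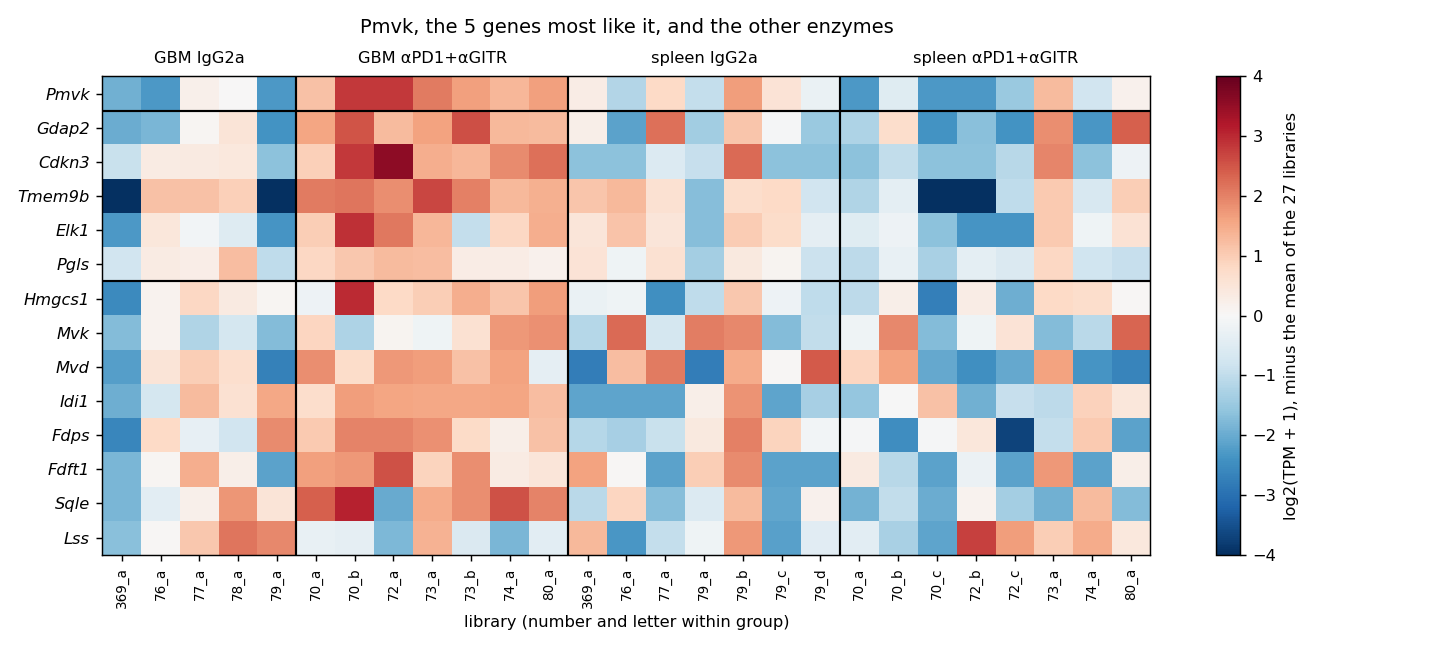
Levels of Pmvk (top row), the 5 genes most like it (middle) and the other 8 enzymes (bottom) in the 27 libraries, as log2(TPM + 1) minus the mean of each gene, with values beyond 4 drawn at the end of the colour scale. All 7 GBM libraries after αPD1 + αGITR are red for Pmvk, Gdap2, Cdkn3, Tmem9b and Pgls, and for Lss only library tumor_73_a of that group is red.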

How the data were processed

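RNA of sorted Treg cells was made into libraries by the Smart-Seq2 protocol. Per the labels and the study's methods, the authors aligned reads to mm10 with Tophat and computed TPM with RSEM; versions and the annotation are not given in the sources used here. The deposited table holds TPM + 1, and 1 was subtracted. It scales each library over all its features, so that an abundant feature lowers the rest. Read depth is not recoverable from TPM, so no counting interval is given. 1 column of per-sample values carries no sample name and was not used, which leaves 27 of 28 libraries. No pair of libraries within a group held identical values.

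The members and the gene lists were chosen with earlier results of these data known. Linear models of log2(TPM + 1) came from limma 3.58.1 (R 4.3.3), using lmFit and then eBayes with a trend. A gene was tested when its mean exceeded 10 TPM in 1 or more of the groups compared, with Benjamini-Hochberg adjustment over all genes tested. The interaction used all 4 groups. Single members were also compared by an exact two-sided permutation test over every split of the libraries, whose smallest possible p is 0.00126 in GBM and 0.000155 between the treated tissues; these 32 tests of 8 members in 4 comparisons are unadjusted. Mean ± SD is over libraries. Named genes are the 9 members, listed genes past an unadjusted p under 0.05 and 2-fold (at most 4 of lowest p per list and comparison, or where none passed the pair with the highest mean), and the 5 genes of highest r with Pmvk. Gene positions are from GENCODE vM21 (GRCm38). Mvd, Hmgcs1, Idi1, Fdps, Fdft1 and Lss overlap other annotated genes, and their values are uncertain to that degree. Some listed genes are not reported here. The scripts were tested on simulated data. Alternatives were other pseudocounts, filters, scalings, covariates, library weights and sets of libraries. Tables were handled in Python 3.11.15 with pandas 2.3.3 and numpy 2.4.6.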

Additional observations from a re-analysis of the deposited data

Results flagged for a closer look

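Hmgcs1 was at 0.18 TPM in library tumor_369_a after IgG2a, far below the other 4 of that group, and Sqle was at 0.23 TPM in library tumor_72_a after αPD1 + αGITR, far below the other 6. These are 2 of 36 combinations of member and group that were examined, and chance alone singles out about 1 in 20.

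The treatment change differed between GBM and spleen for Mvd, by 2.93, and for Fdps, by 2.46, on the log2 scale, each at an unadjusted limma p under 0.05 and not after adjustment. Mvd was positive in GBM and negative in spleen, and so was Fdps.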

How the results depend on the processing

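The median difference of the 8 members kept its sign under every alternative in GBM after treatment, in spleen after treatment, between tissues after αPD1 + αGITR and for the interaction, and changed sign between tissues after IgG2a. TMM-type factors moved the median of all genes from 0.62 to 0.46 in GBM after treatment and from 0.15 to -0.09 in spleen, and the members' medians to 1.47 and -0.40; quantile normalization moved them to 0.13 and 0.02, and the members' to 0.79 and -0.22. The cause of the changes below was not tested.

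In GBM after treatment the count of 3 members at the unadjusted threshold became 0 with a pseudocount of 10 or with libraries of one number averaged, 5 with no filter, and 1 with a mean above 10 TPM in every group (fewer genes tested), quantile normalization, rescaling without the 10 most abundant features or all 4 groups in one fit; without 1 library it was 1 to 3. Between tissues after αPD1 + αGITR the median of 1.90 became 2.64 with a pseudocount of 0.1, 0.75 with 10 and 0.64 with quantile normalization. The count of 6 became 2 with a pseudocount of 10, 0 with a mean above 10 TPM in every group and 3 with quantile normalization. The adjusted count of 4 became 0 with a pseudocount of 0.1, no filter, a mean above 10 TPM in every group, quantile normalization, rescaling or averaging, 2 with a pseudocount of 10, genes detected as a covariate, or all 4 groups in one fit, and 0 to 6 without 1 library. Leaving out the 2 GBM libraries with most macrophage transcripts, or the 3 splenic libraries with fewest T cell transcripts, both chosen after seeing the data, drops here 1 library each, tumor_73_a or spleen_72_b, with a count of 2 as without that library.

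For Pmvk, which has no test, the interaction of 4.35 became 7.25 with a pseudocount of 0.1 and 1.59 with 10, GBM minus spleen after IgG2a -2.83 with 0.1, and after αPD1 + αGITR 4.42 and 1.21. For the interaction the count of 2 became 1 with a pseudocount of 0.1, rescaling, or without the 2 GBM libraries with most macrophage transcripts, 0 with a mean above 10 TPM in every group, 4 with genes detected as a covariate and 1 to 4 without 1 library. Its median of 2.01 became 0.75 with a pseudocount of 10 and 0.93 with library weights. Idi1 turned from 0.52 to -0.24 with a pseudocount of 0.1, -0.15 with library weights, -0.14 with averaging, and ran from -0.0066 to 0.87 without 1 library. After IgG2a, Mvd turned from -0.80 to 0.67 with library weights, and Fdps from -0.18 to 0.21 with library weights and 0.44 with averaging, and ran from -0.70 to 0.42 without 1 library.

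Tumor and splenic libraries share numbers in their titles, whose meaning is not given. Deviations of same-titled libraries correlated at -0.11 to 0.18 in 4 pairs after IgG2a and -0.16 to 0.09 in 5 pairs after treatment. Such low values in so few pairs cannot show whether a tumor and a spleen of one number came from one animal. The numbers were not taken as pairs in the main tests. With the number as a replicate block the adjusted count between tissues after αPD1 + αGITR was 1, the interaction count 1, the Idi1 interaction -0.014, and Fdps after IgG2a 0.65. The treatment comparisons share no numbers.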
